A study of Mus musculus with 10 samples.

Results

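The binding sites of Nanog and Sin3a were compared in one mouse cell line that carries transgenes for both proteins, the Nanog + Sin3a line. All peaks of its 2 deposited lists were used: 36286 peaks from chromatin precipitated with a FLAG antibody and 18231 from chromatin precipitated with a Sin3a antibody. They make up 54517 of the 110170 peaks of the series on genome build mm9. Peaks of the 2 lists were taken as shared when they had at least 1 base in common. A one-to-one pair is a FLAG peak and a Sin3a peak that shared bases with each other and with no further peak of the opposite list.

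The cells were pre-iPSCs, partly reprogrammed cells, made from female neural stem cells of the strain 129/MF1 with an Oct4-GFP-IRES-puro reporter, and were kept on gelatin in medium with serum and LIF. Every ChIP group carried a pair of PiggyBac vectors with the CAG promoter, which drives strong expression without induction, selected with hygromycin and/or blasticidin. The Nanog + Sin3a line received FLAG-tagged Nanog and Sin3a, the Nanog line received FLAG-tagged Nanog and EV, and the Sin3a line received Sin3a and EV. The labels give 2 replicates for each of the 4 ChIP groups, with 1 input and 1 IgG sample, and do not say whether a line was a clone. The FLAG antibody sees the tagged transgene product, whereas the Sin3a antibody is directed at the protein itself, so added and endogenous Sin3a cannot be told apart. The files hold peaks and no expression values, so the labelled cell type and transgenes could not be checked against markers.

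Nanog is a homeodomain transcription factor that binds DNA directly and holds embryonic stem cells in the pluripotent state. Sin3a has no DNA-binding domain of its own. It is the scaffold of a complex with histone deacetylases that sequence-specific factors bring to chromatin, and it is known at promoters of active genes as well as at repressed ones. ChIP-seq maps both kinds of contact as peaks: regions where more DNA fragments were recovered than the control leads one to expect. The summit is the base of highest signal, and the deposited fold enrichment compares the scaled fragment number at the summit with the expected background, with 1 added to each.

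FLAG peaks had a median width of 351 bp (quartiles 252 to 535) and a median fold of 4.74 (3.78 to 6.39). Sin3a peaks were wider, with a median of 471 bp (297 to 777), at a similar median fold of 4.63 (3.74 to 6.16). A median of 39 fragments lay over a FLAG summit and 38 over a Sin3a summit, so the 2 lists rest on like numbers of fragments per peak. The control depth computed from the values was 25.9 tags per kb for all 4 lists of the series, whereas the control sample used for each is not stated. It is the genome-wide background level over the narrowest peak width, which takes that width as the fragment length. That assumption was not checked. Each group has 1 deposited list and no value per replicate. No difference could therefore be set against the spread between replicates, and no p-value was computed. Intervals are 95% intervals for counting error over peaks, which are not replicates.

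Most Sin3a peaks lay at a FLAG peak, but fewer than 1 in 2 FLAG peaks lay at a Sin3a peak. Of the Sin3a peaks, 14648 of 18231 were shared, or 80.3% (Wilson interval 79.8 to 80.9%). Of the FLAG peaks, 15319 of 36286 were shared, or 42.2% (41.7 to 42.7%). The difference in list length bears on both shares: with equal numbers of the top peaks of each list, 54.7% of Sin3a peaks and 52.9% of FLAG peaks were shared. The strongest Sin3a peaks by −log10 q nearly all had a FLAG partner, 99 of the top 100 and 985 of the top 1000. The strongest FLAG peaks did not: 197 of the top 500 were shared, or 39.4%, close to the share over the whole FLAG list. These top peaks were wide, with medians of 976 bp for the top 1000 Sin3a peaks and 693.5 bp for the top 500 FLAG peaks. Among all peaks of like width, 97.4% of Sin3a peaks (975 to 1118 bp) and 73.9% of FLAG peaks (675 to 784 bp) were shared. The 2 proteins were precipitated separately, so a shared peak does not show that both sat on one DNA molecule or in one cell.

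Shared peaks fell into 14021 joined groups, of which 12359, or 88.1%, were one-to-one pairs. The next most frequent form was 1 Sin3a peak with 2 FLAG peaks, at 1006 groups or 7.17%. The reverse form, 1 FLAG peak with 2 Sin3a peaks, made up 449 groups or 3.20%.

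Agreement in strength between the 2 proteins was weak. Over the 12359 pairs, Spearman's rho of Sin3a fold and FLAG fold was 0.284 (0.267 to 0.300), and Pearson's r of the log2 folds was 0.274. With −log10 q in place of fold, rho was 0.274. With the fragment numbers recovered from the deposited values it was 0.296, and over the 5230 pairs whose background was at the genome-wide level in both lists it was 0.270. The points share the breadth of the site and a background of equal depth, since wide peaks were strong peaks in each list (rho of width and fold 0.684 for Sin3a and 0.631 for FLAG) and the widths of paired peaks went together (rho 0.482). Within 20 bins of pair width, the sum of the 2 widths, the mean rho of the folds was 0.0498. The bins ranged from −0.0653 to 0.169. At a given sum a wider Sin3a peak comes with a narrower FLAG peak, so this binning can itself lower rho. How much of the fall came from that was not tested. The Spearman correlation also fell to 0.162 among peaks with a −log10 q of at least 10 and to 0.151 with equal numbers of top peaks. Both settings leave out weak peaks, which narrows the range of fold and can by itself lower rho.

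Divided into quintiles of Sin3a fold, the pairs showed how far the 2 strengths went together. In the top quintile, with a Sin3a fold of 7.04 or more, the median FLAG fold was 6.65 (quartiles 5.25 to 8.55). In the bottom quintile, with a Sin3a fold of 3.74 or less, it was 4.74 (3.74 to 6.39). The quartile ranges of the extreme quintiles overlapped. Of the top Sin3a quintile, 32.8% (31.0 to 34.7%) also stood in the top FLAG quintile and 7.40% in the bottom one. Read the other way, the median Sin3a fold rose over the FLAG quintiles from 4.22 through 4.56, 5.14 and 5.43 to 5.78. By fold, 2 pairs were in the top 100 of both proteins, 46 in the top 500 of both and 190 in the top 1000 of both. These are 2%, 9.2% and 19% of each top set, where the top sets themselves make up 0.809%, 4.05% and 8.09% of all pairs.

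**Figure D1:**
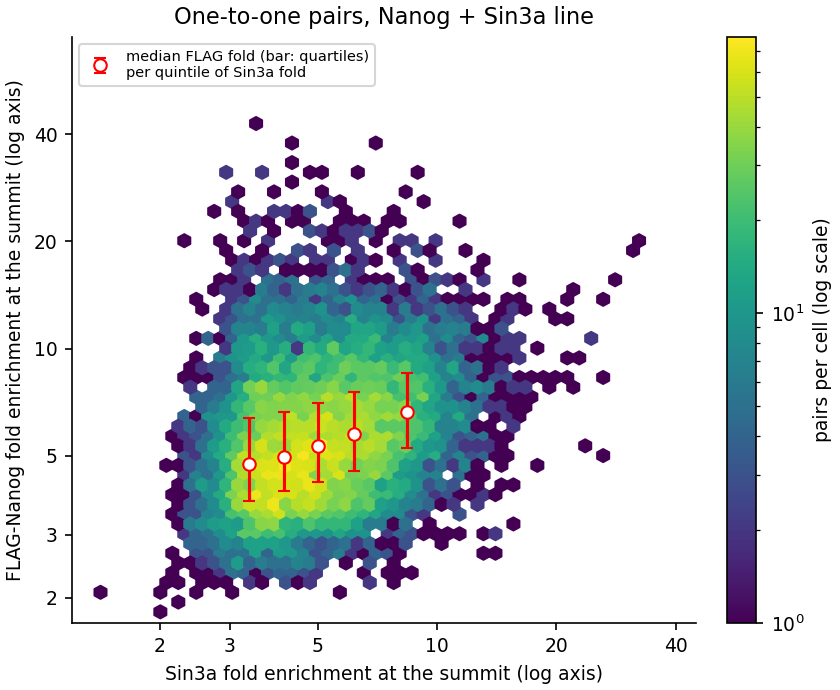
Sin3a fold (x axis, log scale) against FLAG fold (y axis, log scale) at the summits of the 12359 one-to-one pairs of the Nanog + Sin3a line, shaded by the number of pairs per cell on a log scale. Red points are the median FLAG fold in each quintile of Sin3a fold with quartile bars, and climb from 4.74 to 6.65 while the bars of the extreme quintiles overlap.

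The same measure was far higher when one antibody was compared between lines. The Spearman correlation was 0.784 over 12851 Sin3a pairs between the Sin3a line and the Nanog + Sin3a line, and 0.738 over 25899 FLAG pairs between the Nanog line and the Nanog + Sin3a line. Within width bins these stayed at 0.624 and 0.612. At 8393 sites with exactly 1 peak in each of the 4 lists, where all comparisons use the same sites, the Nanog + Sin3a line gave a rho of 0.253 (0.233 to 0.274) between its FLAG and Sin3a folds. The Sin3a folds of the Sin3a line against the FLAG folds of the Nanog line gave 0.302 at these sites, Sin3a against Sin3a 0.791 and FLAG against FLAG 0.825. The 2 proteins measured in one line thus did not show a higher rho than the 2 proteins measured in separate lines. These comparisons share lists, and the differences were not tested.

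Single pairs show the range. The Sin3a peak at chr19:4988902-4989494 had a fold of 32.3 from 285 fragments, and its FLAG peak a fold of 20.8 from 184 fragments, with the summits 5 bp apart. The pair at chr7:6362677-6363252 was alike, with folds of 32.3 for Sin3a and 19.1 for FLAG and the summits again 5 bp apart. These were the 2 pairs whose lower rank was best, and both were strong for each protein. At chr15:10653491-10653793, in contrast, 23 fragments gave a Sin3a fold of 2.89 beside a FLAG fold of 32.2 from 278 fragments. At chr1:135882713-135882975 the Sin3a fold was 2.68 and the FLAG fold 24.7. The opposite case was chr10:110601368-110602342, with a Sin3a fold of 13.9 from 108 fragments and a FLAG fold of 2.59. At chr8:72757799-72759111 the Sin3a fold was 13.5 and the FLAG fold 2.73. These sites were named for their ranks, so their values are a description. Genes at these sites are not named, because the annotation used here follows a different genome build.

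Summits of the 2 proteins showed no preferred side. The signed offset, FLAG summit minus Sin3a summit along the genome coordinate, had a median of −1 bp (order-statistic interval −3 to 0), quartiles of −86 and 79 bp and a 5 to 95% range of −303 to 317 bp. The FLAG summit had the higher coordinate in 6070 pairs, the lower in 6226 and the same in 63. Medians per chromosome ran from −12 bp on chromosome 6 to 8 bp on chromosome 16. The sign follows the coordinate and not the direction of transcription, so an offset relative to gene orientation would not show in it.

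**Figure D2:**
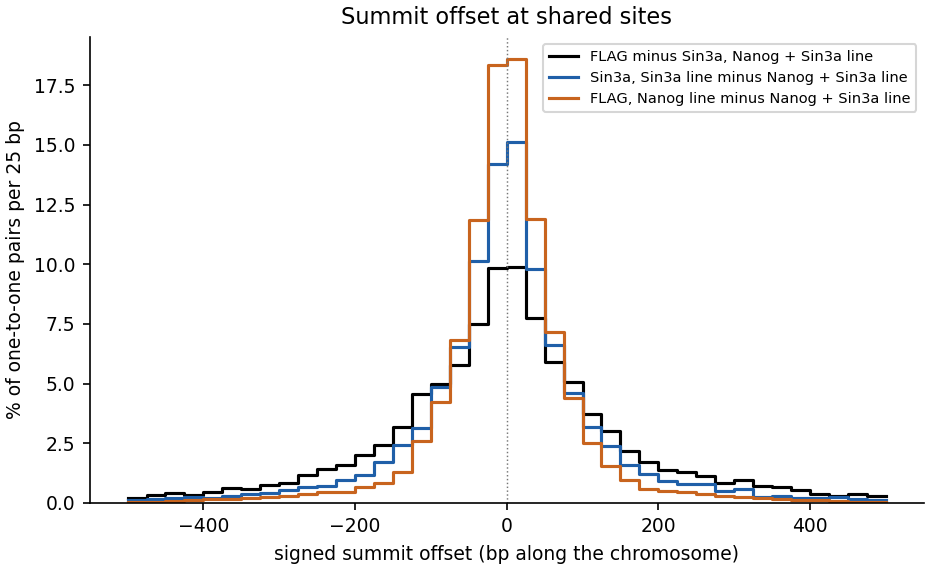
Signed summit offset (x axis, bp along the chromosome, steps of 25 bp) as % of one-to-one pairs (y axis), for FLAG minus Sin3a in the Nanog + Sin3a line (black), Sin3a between lines (blue) and FLAG between lines (orange). All 3 curves are centred near 0, and the black one, with a median of −1 bp, is the broadest.

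Without regard to sign, the median distance was 82 bp (80 to 85). It was within 10 bp in 9.09% of pairs, within 50 bp in 35.3%, within 100 bp in 57.0% and within 200 bp in 79.6%. Beyond 500 bp lay 371 pairs. The FLAG summit fell inside the Sin3a peak in 91.6% of pairs and the Sin3a summit inside the FLAG peak in 91.2%. Paired peaks overlap by definition, which limits these distances. The peak centres of the same pairs lay a median of 75 bp apart, so summits were no closer than centres. The FLAG summit was nearer to the Sin3a summit than to the centre of the Sin3a peak in 50.3% of pairs. Without regard to width, the distance showed no steady order with strength. Over quintiles of Sin3a fold its median lay between 75 and 92 bp, and over quintiles of FLAG fold between 77 and 86 bp. Width rose over the same Sin3a quintiles, from a median of 291 to 872.5 bp. At like width, stronger Sin3a peaks more often had a FLAG summit close by: the share of all Sin3a peaks of 390 to 575 bp with a FLAG summit within 200 bp was 50.6% in the weakest quintile of fold and 85.5% in the strongest. Among Sin3a peaks of 870 bp and wider, of which 95.6 to 99.3% were shared in every quintile, it was 53.2% and 75.6%.

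Distance followed the width of the site between the 2 proteins, and did so less within one antibody. Where the narrower peak was under 250 bp the median FLAG to Sin3a distance was 66 bp, and where it was 750 bp or more it was 152 bp. Over the same width classes the median distance was 34 to 40 bp for FLAG between lines and 44 to 62 bp for Sin3a between lines. For Sin3a of the Sin3a line against FLAG of the Nanog line the distances were 57 and 129 bp. At the 8393 sites with 1 peak in each list, the median distance was 81 bp for FLAG and Sin3a of the Nanog + Sin3a line, 48 bp for Sin3a between lines and 36 bp for FLAG between lines. The 2 proteins were thus farther apart than the maps of either one between lines at the same sites. At these sites Sin3a of the Sin3a line lay a median of 73 bp from FLAG of either line. Sin3a of the Nanog + Sin3a line lay 80 bp from FLAG of the Nanog line. Among pairs with a −log10 q of at least 10 in both lists, the largest distance was at chr19:10340689-10342896, where the FLAG summit lay 1477 bp above the Sin3a summit in peaks of 2267 and 2208 bp.

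Shared peaks were wider than unshared ones, and most of their higher fold went with width. A wider peak has more bases with which to meet the rule of 1 shared base, so a gap in width is partly built in. How much of the gap came from the rule was not tested. Among Sin3a peaks the median width was 546 bp when shared and 297 bp when not, and the median fold 5.01 against 3.87, a ratio of 1.30. Matched for width, shared Sin3a peaks remained stronger by a ratio of 1.06 (1.04 to 1.07), and the ratio was over 1 in 15 of 18 width bins. Sin3a peaks of 1119 bp and wider were left out of this ratio, since their bins held only 16 and 9 unshared peaks. The excess lay in the wider bins: the ratio was 1.00 at 195 to 205 bp, 1.21 at 522 to 575 bp and 1.27 (1.07 to 1.50) at 975 to 1118 bp.

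FLAG peaks did not follow this pattern. Over all widths shared FLAG peaks had the higher fold, 5.38 against 4.36, a ratio of 1.23, at widths of 487 against 296 bp. Matched for width the ratio was 0.968 (0.960 to 0.976), under 1 in 17 of 20 bins and over 1 in 0. At 785 to 979 bp shared FLAG peaks had a median fold of 7.16 and unshared ones 8.17, a ratio of 0.877 (0.812 to 0.946). The direction depended on what counted as shared: with summits within 200 bp as the rule, the FLAG ratio was 1.02 (1.01 to 1.03), and that of Sin3a was 1.09. In the single-transgene lines the ratio was 1.08 (1.06 to 1.09) for Sin3a and 1.03 (1.02 to 1.04) for FLAG. Scored against the Sin3a list of the Sin3a line, the FLAG peaks of the Nanog + Sin3a line gave 0.966, and the FLAG peaks of the Nanog line against the Sin3a peaks of the double-transgene line gave 1.03. The ratio below 1 thus went with the FLAG list of the Nanog + Sin3a line, whichever Sin3a list was used. The FLAG lists also differed in depth, with a median of 39 fragments per summit in the Nanog + Sin3a line and 33 in the Nanog line. Line and depth cannot be told apart here, and the difference between the FLAG lists was not tested.

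**Figure D3:**
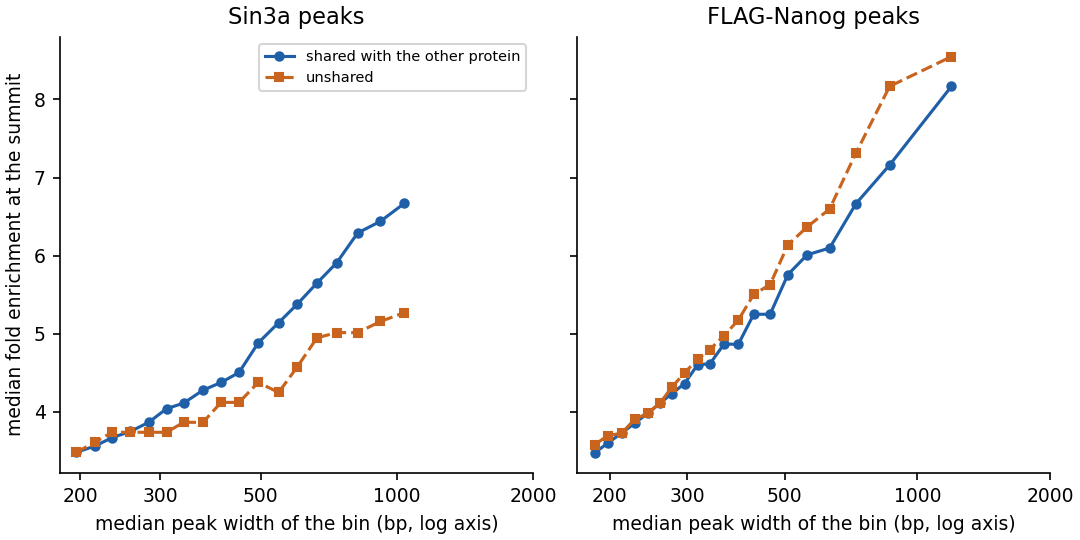
Median fold at the summit of shared peaks (solid line) and unshared peaks (dashed line) by median width of the bin (log axis), for Sin3a (left) and FLAG (right) in the Nanog + Sin3a line. Shared Sin3a peaks pull above unshared ones as width grows, whereas shared FLAG peaks lie at or under unshared ones, as in the bin of 785 to 979 bp with 7.16 against 8.17.

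Width was then crossed with fold. Among FLAG peaks of 408 to 594 bp, the share with a Sin3a peak was 50.7%, 55.1%, 57.6% and 58.0% over the 4 lower quintiles of fold in order and 37.6% in the strongest quintile. Among those of 595 bp and more it was 68.9% in the strongest quintile and 73.8 to 82.5% in the others. With summits within 200 bp as the rule, the strongest quintile of the 408 to 594 bp class was lower than the quintile next to it, at 33.4% against 48.4%, but not lower than the weakest, at 32.2%. The same held at 595 bp and wider, with 49.4% in the strongest quintile and 45.3% in the weakest, and at 307 to 407 bp, with 25.2% and 23.4%. The strongest FLAG peaks thus had the lowest share of their width class under the rule of 1 shared base and not under that of close summits. In Sin3a peaks the share climbed with fold, from 72.4% to 91.6% at 390 to 575 bp and from 83.2% to 98.1% at 576 to 869 bp. In the narrowest Sin3a peaks, of 195 to 270 bp, it stayed between 56.8 and 60.2%.

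**Figure D4:**
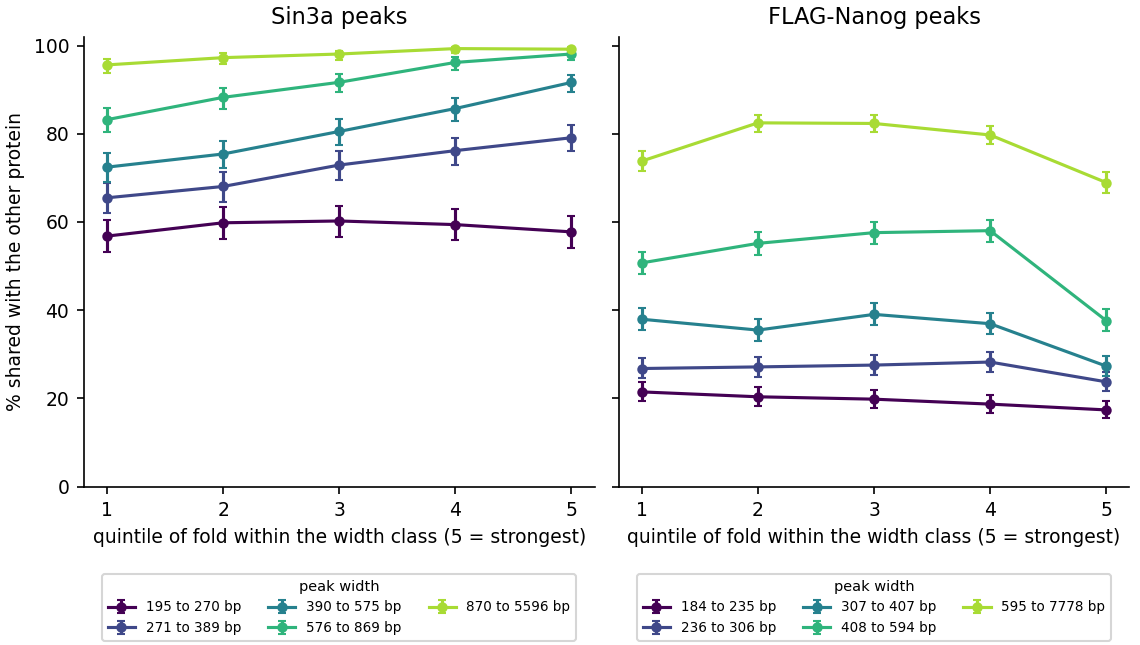
Share of peaks with a peak of the other protein (y axis, % of peaks, Wilson bars) by quintile of fold within each width class (x axis), for Sin3a peaks (left) and FLAG peaks (right) of the Nanog + Sin3a line. Sin3a lines climb or stay level with fold, whereas FLAG lines of 307 bp and wider drop in the strongest quintile, for example from 58.0% to 37.6% at 408 to 594 bp.

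Some of the strongest FLAG peaks had no Sin3a peak. The FLAG peak at chr17:49990270-49991059 ranked number 3 by −log10 q, with a fold of 38.2 from 312 fragments, and the nearest Sin3a peak lay 159368 bp away. The peaks at chr11:101619852-101620607 and chr10:42135873-42136415 had folds of 38.1 and 38.0 and also no Sin3a peak. The strongest unshared Sin3a peak, chr17:25376520-25377222, ranked 80 in its list, with a fold of 10.9 from 140 fragments. Unshared peaks of the 2 lists also differed in distance to the other protein. The median gap to the nearest FLAG peak was 964 bp (quartiles 306 to 9616) for 3583 unshared Sin3a peaks, 50.5% of which had one within 1 kb. For 20967 unshared FLAG peaks the median gap to a Sin3a peak was 26206 bp (5288 to 96811), and 11.0% had one within 1 kb. The FLAG list is the longer one, and the part of list length in these gaps was not tested.

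The edge of the overlap rule held few peaks. The 61 pairs that shared 1 to 50 bases had median folds of 3.48 for Sin3a and 3.73 for FLAG and a median summit distance of 248 bp. Just outside, 82 unshared Sin3a peaks and 104 unshared FLAG peaks lay within a gap of 50 bp, with median folds of 3.48 and 3.73.

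Most shared Sin3a peaks held a single FLAG peak, and the number grew with the width of the Sin3a peak. Here a peak holds another when they share at least 1 base, so the held peak need not lie wholly inside. Of the 14648 sharing Sin3a peaks, 13449 held 1 FLAG peak, 1111 held 2, 79 held 3, 7 held 4 and 2 held 5. Together 1199 held 2 or more, or 8.19% (7.75 to 8.64%), with a mean of 1.09. In the single-transgene lines that share was 8.42% (7.99 to 8.87%), and the 2 intervals overlapped. The reverse was less frequent: 586 sharing FLAG peaks, or 3.83% (3.53 to 4.14%), held 2 or more Sin3a peaks.

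**Figure D5:**
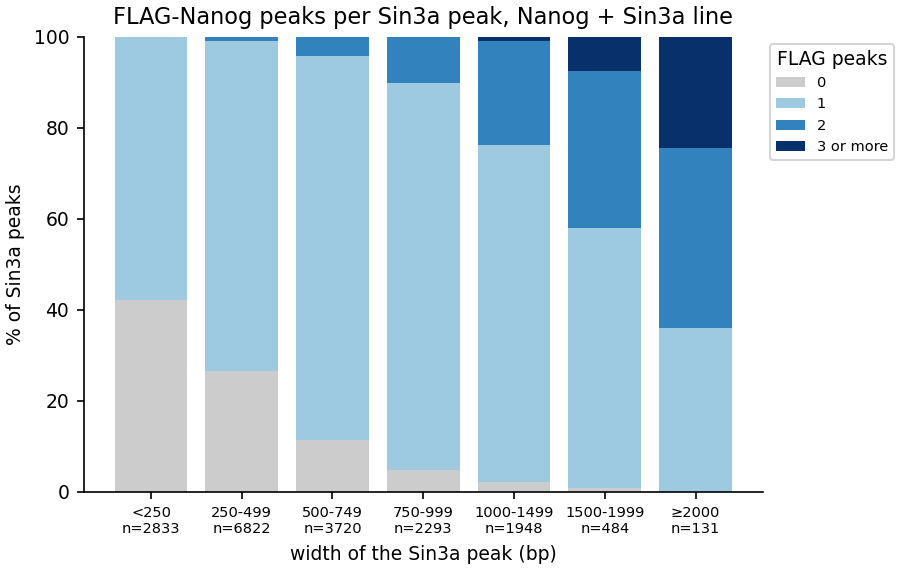
Sin3a peaks of the Nanog + Sin3a line by width (x axis, bp) and by the number of FLAG peaks that share a base with them (y axis, % of Sin3a peaks in the class). The part with 0 FLAG peaks shrinks from 42.2% under 250 bp to 0% at 2000 bp and wider, while the part with 2 or more grows to 64.1%.

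Of the 2833 Sin3a peaks under 250 bp, 42.2% held 0 FLAG peaks, and 0.183% of those that shared held 2 or more. From 500 to under 750 bp 11.3% held 0, and 4.67% of sharing peaks held 2 or more. From 1000 to under 1500 bp these values were 2.21% and 24.4%. Of the 131 Sin3a peaks of 2000 bp or wider, 0 were without a FLAG peak, and 64.1% (55.6 to 71.8%) held 2 or more. A wider Sin3a peak has more room to meet FLAG peaks under the rule of 1 shared base, so both trends are partly built in. The size of that part was not tested. FLAG peaks per kb of Sin3a peak went the other way, from 2.66 in the narrowest class to 0.800 in the widest. A fall is built into this measure, since a narrow Sin3a peak that touches 1 FLAG peak already has a high value per kb. Sin3a peaks with 2 or more FLAG peaks had a median fold of 6.29 against 4.89 for those with 1, a ratio of 1.29. Matched for width the ratio was 0.923 (0.901 to 0.946, 10 bins), so at a given width the Sin3a peaks with more FLAG peaks were the weaker ones. The share was lower with weak peaks left out: 2.29% of sharing Sin3a peaks held 2 or more among peaks with a −log10 q of at least 10, and 1.88% with equal numbers of top peaks.

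In the 1111 Sin3a peaks with 2 FLAG peaks, the FLAG summits lay a median of 651 bp apart (quartiles 500.5 to 848). The Sin3a summit was a median of 101 bp from the nearer FLAG summit and 586 bp from the farther, where near and far were set by these distances. It lay between the 2 FLAG summits in 758 of them, or 68.2%, and inside one of the FLAG peaks in 959, or 86.3%. The nearer FLAG peak was the stronger one in 728 of 1106 without ties, or 65.8% (63.0 to 68.6%), and its median fold was 5.15 against 3.98 for the farther.

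The widest example was the Sin3a peak of 5596 bp at chr15:76033983-76039578, with a fold of 7.31, which held 5 FLAG peaks. Their folds were 8.25, 7.66, 4.23, 8.93 and 3.22 along the coordinate, and the strongest had its summit at −213 bp from the Sin3a summit. At chr13:114404852-114409122 a Sin3a peak with a fold of 19.7 held 4 FLAG peaks, whose folds were 3.35, 3.14, 3.85 and 6.49. The strongest of these had its summit 5 bp from that of Sin3a. Of the 4 Sin3a peaks with the most FLAG peaks, the other two differed. At chr7:56500980-56504629 the strongest of 4 FLAG peaks, with a fold of 11.3, had its summit 2804 bp above that of Sin3a, and the nearest, at −493 bp, a fold of 6.77. At chr4:149610366-149613491 the nearest of 5 FLAG summits, at −369 bp from that of Sin3a, had a fold of 4.74 and the strongest, at 423 bp, a fold of 5.47. The FLAG peak with the most Sin3a peaks, at chr11:86391366-86395216, had a fold of 15.8 and held 7 of them, with Sin3a folds from 2.90 to 5.14.

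Sharing was much less frequent at FLAG peaks not listed in the Nanog line. Of 28911 FLAG peaks that shared a base with a FLAG peak of the Nanog line, 51.0% were shared with Sin3a in the Nanog + Sin3a line. Of the 7375 that did not, 7.92% (7.32 to 8.56%) were. The peaks of the second set were also weaker and narrower, with a median fold of 3.85 against 5.05 and a median width of 243 against 400 bp. The gap held within width classes: 30.4% against 7.84% under 250 bp, and 72.4% against 10.3% at 500 bp and wider. The ratio of shared to unshared fold, matched for width, was 0.950 within the first set and 0.905 within the second, so both lay under 1. Sin3a peaks showed a smaller gap of the same direction. Of 14660 Sin3a peaks also found in the Sin3a line, 85.5% had a FLAG peak, against 59.0% (57.4 to 60.6%) of the 3571 that were not. At 500 bp and wider these shares were 93.8% and 72.6%.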

How the data were processed

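ChIP-seq groups were taken from the sample descriptions. Each ChIP group has 1 deposited peak list. The labels do not say whether its 2 replicates came from separate cultures. Per the submitters' processing notes, build mm9, FastQC 0.10.1, Bowtie 1.0.0 and SAMtools 0.1.19 were used. The sources used here do not give the peak caller or say whether replicates were pooled. The deposited score is 10 times the −log10 q, in 100% of rows. As deposited, fold is the authors' ratio at the summit. The deposited −log10 p and −log10 q are the authors' own, and the deposited summit position is a distance in bases from the peak start. All of these served only to describe, rank or filter peaks.

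Overlaps were computed with NumPy 2.4.6 and pandas 2.3.3 and checked with bedtools 2.31.1. The unscaled fragment count at each summit was recovered as the whole number that gives both the deposited fold and the −log10 p. A single number fitted for 99.7% of FLAG and 99.5% of Sin3a peaks. These counts are the sole measure of ChIP depth used, since library totals were not given, and they do not show duplicates. For width matching, each list was divided into 20 quantile bins of width. Bins with under 20 shared or under 20 unshared peaks were left out. The log2 ratios of median fold were averaged with the number of unshared peaks as weights. Shares carry Wilson intervals, medians order-statistic intervals and rho a Fisher interval. The scripts were tested on simulated data.

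Named sites were the one-to-one pairs best ranked by fold in both lists, those with the largest rank differences or summit distances, the peaks that held the most peaks of the other list, and the unshared peaks with the highest −log10 q. The sites and comparisons were chosen with earlier results of these data known. The alternatives were another overlap rule, stricter or equal-sized lists, other width bins and weights, another measure of strength and left-out chromosomes. The input sample and the IgG sample were not used here. The gene, miRNA and promoter tables used here are of GRCm38, so no gene was assigned and no sequence was read. Coordinates are printed 1-based.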

Additional observations from a re-analysis of the deposited data

How the results depend on the processing

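Leaving out a replicate was not possible, since each group has 1 list with no value per replicate. No paired analysis was possible because no column carries a replicate number. Of 61 alternative values, 24 stayed within the counting interval of the reported value, among them all values without chromosomes 6 and X, 36 moved beyond it and 1 reversed. The reversal was the FLAG width-matched ratio, 1.02 with summits within 200 bp. The cause was not tested, here or for the shifts below. The other FLAG ratios that moved stayed under 1: 0.923 with −log10 q as strength, 0.955 at a −log10 q of at least 10, 0.979 at an overlap of 50% of the shorter peak, 0.930 with equal numbers of top peaks and 0.946 with weights by shared peaks. With settings added after the data were seen it was 0.950 for FLAG peaks also found in the Nanog line and 0.956 with fragment numbers. The Sin3a ratio stayed over 1: 1.13 with −log10 q as strength, 1.08 at a −log10 q of at least 10, 1.07 at 5, 1.07 at 50% overlap, 1.07 with equal numbers, 1.09 with summits within 200 bp and 1.12 with weights by shared peaks. The rho of the folds was 0.162 at a −log10 q of at least 10, 0.231 at 5, 0.151 with equal numbers, 0.252 with the strongest FLAG peak of each Sin3a peak and 0.0498 within width bins. The summit distance was 89 bp at a −log10 q of at least 10 and 89.5 bp over all sharing Sin3a peaks with the nearest FLAG summit. The shared part of the Sin3a list was 68.0% at a −log10 q of at least 10, 77.9% at 5, 77.9% at 50% overlap, 54.7% with equal numbers and 61.2% with summits within 200 bp, and that of the FLAG list was 35.0%, 38.8%, 40.7%, 52.9% and 30.8% in the same order. The part of sharing Sin3a peaks with 2 or more FLAG peaks was 2.29%, 5.90%, 6.35%, 1.88% and 0.0627% in that order. The last value follows from the rule, since 2 FLAG summits in a Sin3a peak lay a median of 651 bp apart. The fragment number limits single peaks: 23 fragments, as at the weak Sin3a peak on chromosome 15, carry an exact Poisson interval of 14.6 to 34.5.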

Other observations

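Sharing differed between chromosomes. The X chromosome had the lowest share in both lists, 72.4% (66.0 to 77.9%) of 217 Sin3a peaks and 27.0% (23.6 to 30.8%) of 581 FLAG peaks. The highest shares were 84.2% on chromosome 13 for Sin3a and 49.8% on chromosome 7 for FLAG. The lists were not equally long on each chromosome: the X had 2.68 FLAG peaks per Sin3a peak and chromosome 7 had 1.71. The Spearman correlation of the folds ranged from 0.194 on chromosome 9 to 0.353 on chromosome 6, and the median summit distance from 75 bp on chromosome 15 to 91 bp on chromosome 13.

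Local background was compared only by how often it stood above the genome-wide level. That was so at 43.9% (43.13 to 44.74%) of shared and 41.7% (40.05 to 43.29%) of unshared Sin3a summits. For FLAG it was so at 51.1% (50.28 to 51.86%) of shared and 52.6% (51.88 to 53.24%) of unshared summits. The gaps were small and of opposite direction, and the intervals overlapped for Sin3a but not for FLAG. The height of the background was not compared, and these shares were not matched for width. The width-matched ratio of shared to unshared fold was 1.06 (1.05 to 1.08) for Sin3a peaks also found in the Sin3a line and 0.999 (0.985 to 1.01) for those that were not.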
